A study of Acipenser schrenckii with 2 samples.

Results

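The miR-30 family was read on the arrays by every miRNA probe whose name, after its species prefix, starts with miR-30 and no further digit, which gave 15 of 663 probes. The rule used names only and no measured value. The samples are a female gonad and a male gonad of Amur sturgeon (Acipenser schrenckii), 1 fish each, both of 11 months and in normal condition, whose RNA was stained with Cy3 and read on 1 array per sex, at an age that the labels call early in sex differentiation. The chip carries each probe as 5 repeat spots, and its probes were designed for miRNAs of other fishes, so a signal does not show that the sturgeon miRNA has exactly the printed sequence. The title of the series asks which miRNAs differ between the sexes. A single fish and array stood for each sex, so the gonads could not be compared by a test, and every ± below is an SD over 5 repeat spots, which is technical.

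MicroRNAs are short RNAs that guide silencing proteins to messenger RNAs, which they recognise mainly through the seed, bases 2 to 8 of the miRNA. Both strands of a precursor hairpin can be used, and they are named the 5p and the 3p arm. The letters a to e in miR-30 mark paralogues that share the seed of an arm and differ further along. In vertebrates the 5p arms are known as abundant miRNAs of many tissues. miR-30 is needed for development of the embryonic kidney in Xenopus, tunes Hedgehog signalling through smoothened in zebrafish muscle, and represses the autophagy gene BECN1 and mediators of epithelial to mesenchymal transition in mammalian cells.

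By its seed the family fell into 2 groups. The seed GUAAACA, that of the 5p arm, was shared by 10 probes, and the seed UUUCAGU, that of the 3p arm, by 5. Of the 10 names without an arm, the channel catfish names ipu-miR-30a and ipu-miR-30d carried the 3p-type seed, so equal letters in different species prefixes do not mean equal arms here. The 10 targets of the 5p type were the same over their first 9 bases and the 5 targets of the 3p type over their first 8. Targets were 19 to 24 bases long. The targets of the 15 members, which the comparisons of letters, arms and lengths use, are copied from the scanner files and written 5′ to 3′ with the seed in capitals.
dre-miR-30e-5p: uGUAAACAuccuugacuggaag
ola-miR-30a-5p: uGUAAACAuccuugacugg
dre-miR-30d: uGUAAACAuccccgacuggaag
ccr-miR-30d: uGUAAACAuccccgacuggaagc
dre-miR-30a: uGUAAACAuucccgacuggaag
dre-miR-30b: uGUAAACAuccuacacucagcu
dre-miR-30c: uGUAAACAuccuacacucucag
ola-miR-30c: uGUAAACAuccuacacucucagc
ipu-miR-30c: uGUAAACAuccuacacucucagcu
fru-miR-30c: uGUAAACAuccuacacucucgg
dre-miR-30e-3p: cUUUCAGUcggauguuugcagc
ola-miR-30a-3p: cUUUCAGUcggauguuugc
ola-miR-30d-3p: cUUUCAGUcugauguuugcagc
ipu-miR-30a: cUUUCAGUcugauguuugc
ipu-miR-30d: cUUUCAGUuggauguuugcugu

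Several of these targets hold each other whole. The medaka target ola-miR-30a-5p is the first 19 bases of the zebrafish target dre-miR-30e-5p, so by sequence the medaka a and the zebrafish e are the same miRNA at different lengths. In the same way ola-miR-30a-3p is the start of dre-miR-30e-3p, and ipu-miR-30a is the start of ola-miR-30d-3p. The targets dre-miR-30c, ola-miR-30c and ipu-miR-30c are 1 sequence of 22, 23 and 24 bases, and ccr-miR-30d is dre-miR-30d with 1 more base. Counted from the 5′ end, dre-miR-30a differs from dre-miR-30d by C10U, fru-miR-30c from dre-miR-30c by A21G, and ola-miR-30d-3p from dre-miR-30e-3p by G10U. The scanner file of the female lists further names for some probes, among them 5 species' miR-30b for dre-miR-30b and ola-miR-30d-5p for ccr-miR-30d. Probes that share this much sequence can bind each other's miRNA, so the members are not independent measurements.

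Both gonads gave miR-30 signal from both arms. A probe was called detected where at least 3 of its 5 spots exceeded the 95th percentile of the empty spots of its array, an intensity of 103 for the female array and 113 for the male. By this limit 14 of the 15 members were detected in the female and 14 in the male, against 476 and 430 of the 663 probes in all. All 10 members of the 5p type and 4 of the 5 members of the 3p type were detected on either array. The member left out was ipu-miR-30a, with median spot intensities of 101 and 110.1 (normalized 6.38 ± 0.15 and 6.58 ± 0.12) and 2 of 5 spots above the limit on each array. The longer probe for the same 3p sequence, ola-miR-30d-3p, had 5 of 5 spots above it on both arrays. ipu-miR-30d was detected at the edge, with a female median of 108 and a male median of 149. A probe's brightness depends on its own sequence as well as on the amount of RNA, so levels are set against each other below only between arrays and never between probes.

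**Figure D1:**
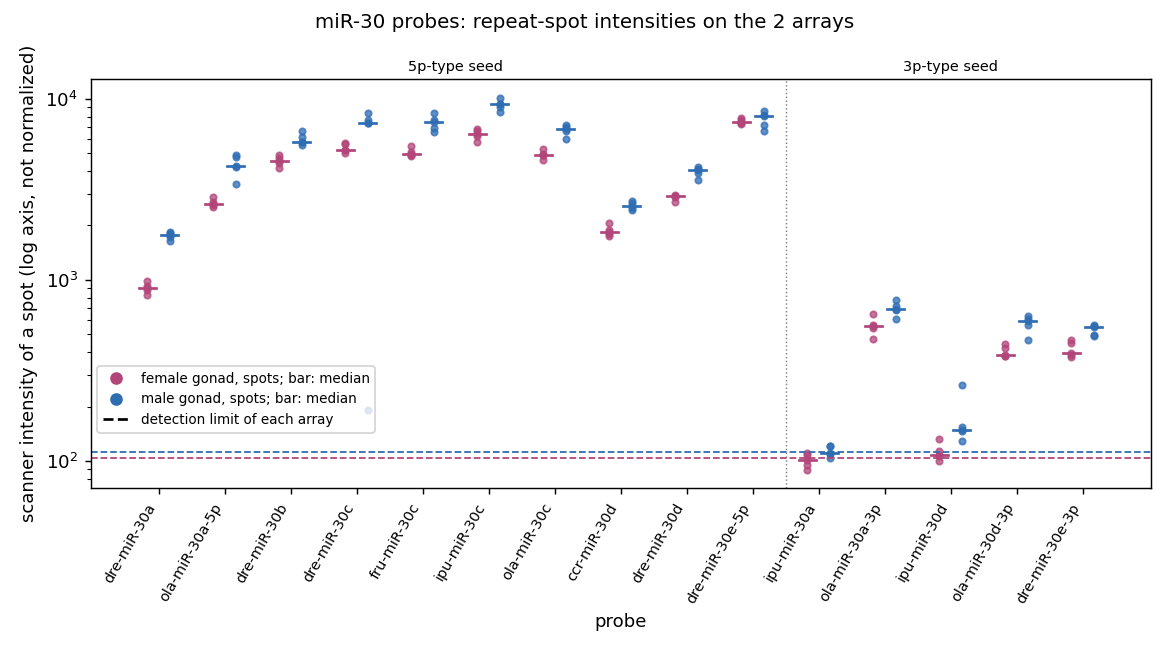
Scanner intensity (log axis, not normalized) of the 5 repeat spots of each miR-30 probe, female beside male, with the median as a bar and the detection limits of 103 and 113 as dashed lines. The 5p-type probes and 3 of the 3p-type probes lie well above the limits, and 1 male spot of dre-miR-30c lies at 191 while the other 4 lie at 7335 or more.

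After quantile normalization the miR-30 family as a whole stood at nearly the same level in the gonads, a level that is relative to the other miRNA probes. Values were compared on the log2 scale after background correction and quantile normalization, as male minus female. A probe counted as higher in 1 sex where it was detected in that sex, differed by at least 1, and had spots that did not overlap from one array to the other. Of the 14 detected members 0 were male-higher and 0 female-higher by this rule, which 4.69% and 1.63% of the 490 probes detected on at least 1 array passed in these directions. At these shares a list of this size would hold few such probes, so the counts of 0 are near the background. The median difference over the 14 members was -0.10, against -0.06 over all 490 probes. Of the members 5 lay above 0 and 9 below, and 9 lay within the middle 50% of all detected probes, which ran from -0.29 to 0.22. In bulk gonad RNA, a difference in the share of cells of a type and a difference in RNA per cell cannot be told apart.

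Before normalization the 14 detected members were all brighter on the male array. The ratio of male to female median intensity, each less the median of the empty spots, ran from 1.09 for dre-miR-30e-5p to 3.25 for the dim ipu-miR-30d, with a median of 1.45. Over the 416 probes detected on both arrays the median ratio was also 1.45, and 372 of them had a ratio above 1. After background correction with an offset of 50 and without normalization, the median log2 difference was 0.47 over the 14 members and 0.37 over the 490 probes detected on at least 1 array. Differences below are relative to this gap between the arrays, which quantile normalization removes.

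miR-30e, whose gene lies beside a miR-30c gene in an intron of the transcription factor gene NFYC in mammals, gave the lowest differences of the family apart from dre-miR-30c. dre-miR-30e-5p had median spot intensities of 7452 (female) and 8076 (male), and normalized values of 13.01 ± 0.04 and 12.65 ± 0.15. Before normalization its spots overlapped (7277 to 7837 in the female, 6671 to 8552 in the male). After it the female spots lay above the male spots with no overlap, and the difference of -0.37, or 1.29-fold in favour of the female, was short of the size rule. Its other arm, dre-miR-30e-3p, read 394 and 550.1, or 8.95 ± 0.15 and 8.57 ± 0.10 after normalization, a difference of -0.39. After normalization its female spots also lay above its male spots with no overlap. Before normalization the order was the reverse, with its male spots (492 to 565) all above its female spots (377 to 468). The arms of miR-30e thus differed by 0.02 in their difference between the gonads. This rests on the normalization, which moves bright and dim probes by unequal amounts: before it, the male to female ratios were 1.09 for the 5p and 1.53 for the 3p arm. The difference of dre-miR-30e-5p lay below the median of all detected probes in the main processing and in each of the 16 alternatives for which a value per member was computed. The same held for ola-miR-30a-3p, while ola-miR-30a-5p, whose target is the start of that of dre-miR-30e-5p, lay above that median in each. These alternatives are not independent, and the share of all detected probes that stay on 1 side of that median is not given here.

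The medaka probe for the first 19 bases of the same 5p sequence did not give the same difference. ola-miR-30a-5p read 2624 (female) and 4283 (male), or 11.66 ± 0.07 and 11.76 ± 0.21 after normalization. Its spots overlapped between the arrays, and its difference was 0.11, on the other side of 0 from that of dre-miR-30e-5p. The gap between these probes of 1 sequence was 0.47, and it was 0.61 before normalization. For the 3p arm the short and the long probe were closer, with -0.16 for ola-miR-30a-3p (9.31 ± 0.17 and 9.14 ± 0.13, from 553.5 and 689) and -0.39 for dre-miR-30e-3p.

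The miRNA named miR-30a in zebrafish was read by dre-miR-30a. This probe read 906 (female) and 1774 (male), or 10.20 ± 0.10 and 10.46 ± 0.06 after normalization. Its male spots (1649 to 1833 before normalization) all lay above its female spots (823 to 993), also after normalization, and the difference was 0.25, or 1.19-fold in favour of the male. After normalization it was the only detected 5p-type probe with its male spots above its female spots without overlap. Before normalization this held for every 5p-type probe but dre-miR-30c and dre-miR-30e-5p. The share of all probes with such spots before normalization is not given here. Of the 416 probes detected on both arrays, 372 had a male to female ratio above 1 before it, so this count cannot be set apart from the gap between the arrays. In all, 3 of 14 members had no overlap in either direction after normalization (dre-miR-30a, dre-miR-30e-5p and dre-miR-30e-3p), against 43.1% of all detected probes. Separation of the spots is thus common on these arrays and does not mark these members. The difference of dre-miR-30a lay above the median of all detected probes in the main processing and in the same 16 alternatives, by 0.24 to 0.60. In each of these settings fru-miR-30c, ipu-miR-30c, ipu-miR-30d and ola-miR-30a-5p lay above that median too. The settings are not independent, and those that differ only by a constant per array give 1 distance from that median by construction. The share of all detected probes that stay on 1 side of it in every setting is not given here, so this does not mark these members.

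miR-30d differs from dre-miR-30a by a single base, and was read by probes of almost 1 length. dre-miR-30d read 2895 (female) and 4036 (male), or 11.77 ± 0.05 and 11.66 ± 0.10 after normalization, and ccr-miR-30d read 1841 and 2571, or 11.09 ± 0.10 and 11.07 ± 0.06. Their spots overlapped between the arrays, and their differences of -0.11 and -0.02 were 0.09 apart. dre-miR-30a exceeded dre-miR-30d by 0.37 in its difference between the gonads. With all spots more than 0.5 (log2) from their probe's median left out, it did so by 0.23. Both values are below the 0.47 between dre-miR-30e-5p and ola-miR-30a-5p, which are probes of 1 sequence. Before normalization the male to female ratio was 2.07 for dre-miR-30a and 1.41 for dre-miR-30d. Control probes with M in their names had a median ratio of 2.03 (20 probes) and those with P in their names 0.855 (15 probes). The sources used here give neither the control sequences nor the meaning of these letters. The part of such array differences in the gap between dre-miR-30a and dre-miR-30d was not tested.

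miR-30b was read by 1 probe and miR-30c by 4, and their targets share the first 18 bases on the chip. dre-miR-30b read 4538 (female) and 5815 (male), or 12.43 ± 0.09 and 12.26 ± 0.10 after normalization, a difference of -0.17 with overlapping spots. Among the c probes, ipu-miR-30c differed by 0.21 (12.85 ± 0.09 and 13.05 ± 0.10, from 6374 and 9372). This turned to -0.06 and -0.01 with scaling to the 75th percentile of the probes detected on both arrays and of all miRNA probes. In these settings all detected probes had medians of -0.23 and -0.19. ipu-miR-30c lay above the median of all detected probes in the main processing and in the same 16 alternatives, by 0.17 to 0.31. fru-miR-30c differed by 0.02 (12.56 ± 0.08 and 12.58 ± 0.14, from 4995 and 7464). ola-miR-30c differed by -0.08 (12.51 ± 0.08 and 12.43 ± 0.10, from 4903 and 6863). These 3 probes straddled 0, and the spots of each overlapped between the arrays.

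dre-miR-30c showed how 1 spot can set a value. With all spots its normalized values were 12.64 ± 0.08 for the female and 11.51 ± 2.44 for the male, a difference of -1.13, which was of the size of a call but failed the rule because the spots overlapped. Of its male spots 1 read 191, while the other 4 read 7335 to 8324, and its female spots read 5050.4 to 5721. Without that spot the difference was 0.04, and with the median of the spots it was -0.01. The authors' deposited table gives 6137 for the female and 6417 for the male, a ratio of 1.05. The longer probes of the same sequence, ola-miR-30c and ipu-miR-30c, held no such spot. The only other member with a spot this far out, more than 0.5 from its probe's median, was ipu-miR-30d, whose male spots read 128 to 262, and its difference went from 0.35 (6.65 ± 0.17 and 7.00 ± 0.44) to 0.21 without that spot.

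**Figure D2:**
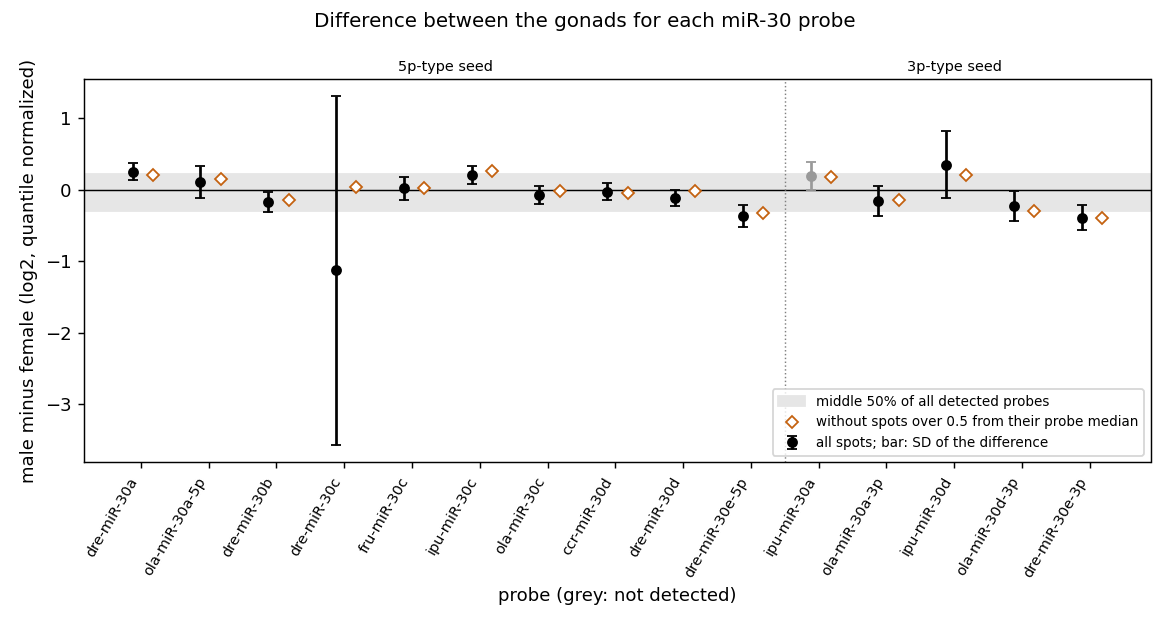
Male minus female log2 difference of each miR-30 probe after quantile normalization, with all spots (points, with the SD of the difference over repeat spots as bars) and without the spots over 0.5 away from their probe's median (diamonds); the grey band holds the middle 50% of all detected probes. With such spots left out, detected members lie between -0.40 and 0.27, and dre-miR-30c moves from -1.13 to 0.04.

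Set side by side with such spots left out, the letters of the 5p type ran in the order e, b, d, c and a by their lowest difference. The e probe stood at -0.33 and the b probe at -0.14. The d probes stood at -0.04 and -0.02, the c probes from -0.02 to 0.27 (the upper end being ipu-miR-30c) and the probes named a at 0.15 and 0.21. The e and b probes were 0.18 apart, while the SDs of their differences over repeat spots were 0.15 and 0.14. From b onward, neighbouring letters were closer than that or overlapped, and the c probes alone spanned 0.29. By sequence ola-miR-30a-5p belongs with the e probe, at the other end of this order. In 6 pairs of detected members 1 target holds the other whole, and after normalization their differences were a median of 0.24 apart (0.02 to 0.47). In the other 45 pairs within an arm the median was 0.18 (at most 0.61). Of these, the 5 that share a letter had a median of 0.06 (0.01 to 0.50) and the 40 that do not 0.18. Before normalization the 6 pairs were the closer ones, with a median gap of 0.06 (0.01 to 0.61) against 0.23 in the other 45. Within these 45 it was then 0.09 (0.03 to 0.92) where the letter is shared and 0.23 where it is not. The pairs share probes, so these medians and the order of the letters are a description.

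The arms were compared through the difference between the gonads. The median difference was -0.05 over the 10 detected probes of the 5p type and -0.19 over the 4 of the 3p type, and the ranges of the arms overlapped. Without normalization the medians were 0.47 and 0.44, and with scaling to the 75th percentile of the probes detected on both arrays -0.13 and -0.16. These settings differ only by a constant per array, so the distance between the arms is the same in both by construction. It was smaller there than after quantile normalization. With cyclic loess the medians were 0.05 and -0.05. They were 0.00 and -0.22 after quantile normalization without spots over 0.5 away from their probe's median, and 0.04 and -0.20 in the authors' values (log2 with 50 added). For ola-miR-30a the arms differed by 0.27 in their difference, with the 5p arm at 0.11 and the 3p arm at -0.16. For ola-miR-30d they differed by 0.20, with the 5p arm (read by ccr-miR-30d) at -0.02 and ola-miR-30d-3p at -0.23 (8.93 ± 0.11 and 8.70 ± 0.18, from 385 and 590.4). After normalization the 3p arm thus had the lower difference in each of the 3 precursors with both arms on the chip. By sequence dre-miR-30e and ola-miR-30a are the same miRNA, so these are not 3 separate cases. For dre-miR-30e the gap of 0.02 was smaller than the SDs of the differences over repeat spots, 0.15 for the 5p and 0.18 for the 3p arm. Before normalization the 3p arm had the higher male to female ratio for dre-miR-30e and for ola-miR-30d (1.71 against 1.42). These ratios use plain subtraction of the empty-spot median. With the background correction of the main processing and no normalization, the 5p and 3p arms of dre-miR-30e differed by 0.03 and 0.37 between the gonads. Those of ola-miR-30d differed by 0.47 and 0.52, with SDs over repeat spots of 0.12 and 0.21. For dre-miR-30e and ola-miR-30d the direction of the gap between arms thus rests on the normalization. For ola-miR-30a the 3p arm had the lower ratio before normalization as well (1.30 against 1.66). With spots over 0.5 away from their probe's median left out, the gaps between arms after normalization were 0.07 to 0.29. These lay within the range of 0.02 to 0.47 between probes of 1 sequence, taken without such spots too.

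A single probe outside the family by name carried the 5p-type seed. It is the custom probe novel_46, whose target is as follows, the seed in capitals.
novel_46: uGUAAACAuccucgacugga
Counted from the 5′ end this target differs from dre-miR-30d by C12U and from dre-miR-30e-5p by U13C, over its 20 bases. No other probe among the 648 outside the family shared either seed of the family or lay within 2 mismatches of a member. Its female and male medians were 5023 and 7089, or 12.53 ± 0.03 and 12.40 ± 0.15 after normalization. Its difference of -0.13 lay between those of the d and the e probe of zebrafish. After normalization its female spots lay above its male spots without overlap, while 43.1% of all detected probes had no overlap in either direction. Before normalization the order was the reverse, with its male spots (5557 to 7121) all above its female spots (4899 to 5129). The male to female ratio before normalization was 1.42, that of the d probes being 1.42 and 1.41.

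The authors' deposited table, made from the same arrays, put the family close to even as well. Of the 14 detected members 7 had a male to female ratio above 1 in it and 7 below. Ratios of the 5p-type members ran from 0.792 for dre-miR-30e-5p to 1.38 for dre-miR-30a, with 0.973 for ccr-miR-30d and 1.01 for dre-miR-30d. The detected 3p-type members spread wider, with 0.710 for ola-miR-30a-3p, 0.796 for dre-miR-30e-3p, 0.914 for ola-miR-30d-3p and 2.04 for the dim ipu-miR-30d. The sign of the difference was the same as here for 12 of 14 members, the others being dre-miR-30c and dre-miR-30d.

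**Figure D3:**
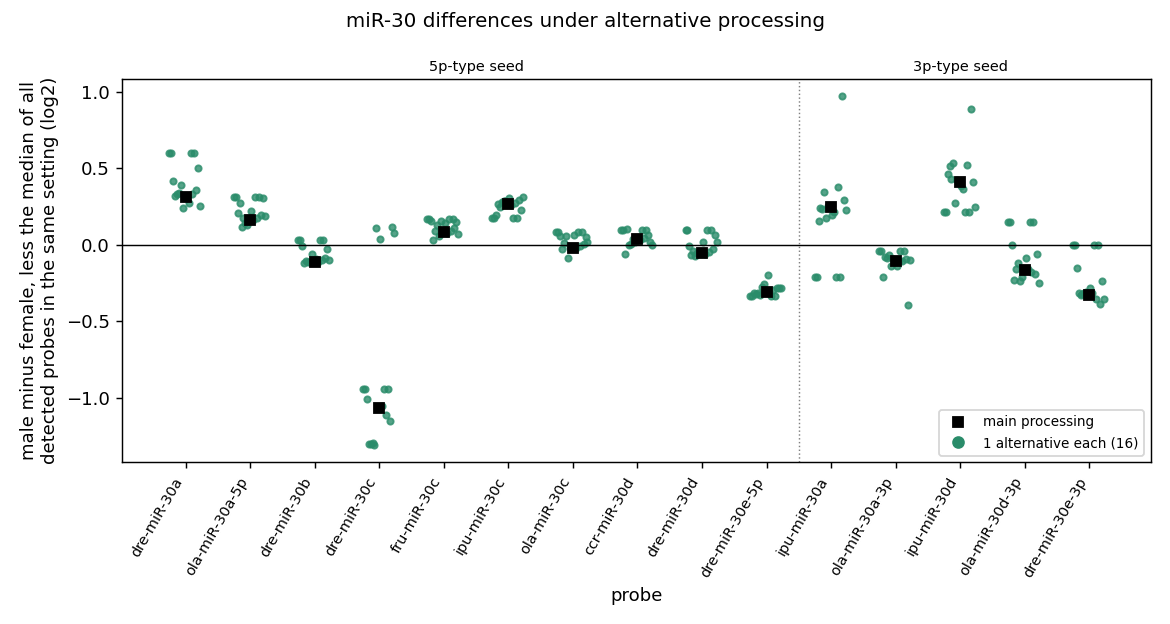
Male minus female difference of each miR-30 probe less the median of all detected probes in the same setting (log2), for the main processing (squares) and 16 alternatives (circles). In each of the 17 settings dre-miR-30a, fru-miR-30c, ipu-miR-30c, ipu-miR-30d and ola-miR-30a-5p lie above 0, while dre-miR-30e-5p and ola-miR-30a-3p lie below 0. The settings are not independent, and those that differ only by a constant per array give the same value here by construction. The circles of dre-miR-30c near 0.1 are settings in which its low spot has little or no weight.

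Other lists give the setting of this even level. miRNAs of kidney and gut epithelium, where miR-30 is also known, had 6 of 8 probes detected with a median difference of -1.11, and 4 of these passed as female-higher (brightest dre-miR-194a, -1.30). The epithelial miR-200 and miR-141 list had 12 of 12 detected, a median of -0.06 and none past the rule (dre-miR-141, -0.14). For miR-29, which represses extracellular matrix genes, 7 of 8 were detected, the median was 0.16 and none passed (dre-miR-29b, -0.16). Of the gonad marker miR-202, ipu-miR-202 was detected on both arrays and passed as male-higher (1.90), and the other 2 probes were detected on neither. The female signal of ipu-miR-202, 6.68 after normalization, lay near the detection limit, so the size of its difference is not settled. Of the list of male germ cells and multiciliated cells 4 of 5 were detected and 3 passed as male-higher (median 1.63, brightest ipu-miR-34b at 1.73). The striated muscle list had a median of -0.24 over 20 of 22 probes with none past the rule (its brightest probe, pol-miR-133-5p, ranked first on both arrays, so quantile normalization sets its difference to 0), and the blood list -0.24 over 8 of 9 with 1 higher in the male gonad (brightest dre-miR-451, -0.45). The part of other cell types in the miR-30 values was not tested.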

How the data were processed

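For each array a scanner file gives the median Cy3 intensity of its 3968 spots, per the file headers, of which 3315 belong to 663 miRNA probes and 361 are empty. Per the labels' protocols, small RNAs were size-selected, extended with a poly(A) tail and tagged for staining (scanner software: not given in the sources used here). A deposited table of the authors holds 1 linear intensity per probe (medians 138 and 150.1, lowest 0.01). It correlated with the scanner medians of the same array across probes (r = 0.996 for both; rho = 0.990 and 0.994), so its scale and direction are clear, while its normalization and centring are unknown.

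Digit separators were removed. Values were background corrected by normexp (offset 50, all spots), put on the log2 scale, averaged over 5 spots and quantile normalized over the 663 probes (R 4.3.3, limma 3.58.1; Python 3.11.15). This gives both arrays 1 distribution, so a shift of all miRNAs cannot be seen, and the offset shrinks differences of dim probes. The deposited intensities carry no background SD, so empty spots set detection. The median SD over spots of detected probes was 0.11 on either array, and the number of arrays limits the precision. All 15 members are named with values or by sequence; outside the family, probes with its 5p seed or within 2 mismatches of a member, and the brightest detected probe of each list. The code that makes the calls was run on simulated arrays, which checks the code and says nothing about the gonads. The members, lists, size rule and alternatives were chosen with earlier results of these data known.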

Additional observations from a re-analysis of the deposited data

How the results depend on the processing

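No paired analysis was possible because there is 1 array per sex. The median difference of the miR-30 members left its range of -0.14 to 0.02 under 2 settings, both of which keep the gap between the arrays: it was 0.47 with no normalization and 0.70 with scaling to the P control probes, where all detected probes had medians of 0.37 and 0.61. In these settings the 5p-type median was 0.47 and 0.70 and the 3p-type median 0.44 and 0.68. Scaling to the P control probes made 1 member higher in the male gonad (dre-miR-30a, 1.21; 108 probes of the chip then passed in this direction and 0 in the other), and letting spots overlap made 1 higher in the female gonad (dre-miR-30c, -1.13, from its 1 low spot). Under the other settings both counts stayed at 0. Over all probes the counts of 23 male-higher and 8 female-higher became 74 and 0 without normalization, 30 and 4 with cyclic loess, 38 and 33 with plain background subtraction, 27 and 15 with offset 16, and 21 to 26 and 8 to 11 without each repeat spot in turn. Leaving out each repeat spot moved the median of the members between -0.14 and -0.07, that of the 5p type between -0.08 and -0.00 and that of the 3p type between -0.26 and -0.15; for dre-miR-30c the difference was 0.04 without the repeat spot that was low and -1.39 to -1.35 without another. The family's median was above 0 with cyclic loess (0.02) and in the authors' table (0.00). Detected members numbered 13 to 15 on either array under other detection limits. A signal near the empty spots limits ipu-miR-30a and ipu-miR-30d, whose differences have no settled size: ipu-miR-30a ran from -0.44 to 0.89 and ipu-miR-30d from -0.02 to 0.82 over the settings.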
